A study of Mus musculus with 6 samples.

Results

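Iron-sulfur clusters are cofactors of iron and sulfide that many enzymes need to move electrons or to bind substrates. In animal cells they are first built inside mitochondria: a cysteine desulfurase supplies sulfur, a scaffold protein holds the nascent cluster, a chaperone pair releases it, and carrier proteins pass it on to its users. The pathway draws on the same mitochondrial iron as heme synthesis, whose last enzyme, ferrochelatase, carries such a cluster itself in mammals. The genes described here are 8 members of the mitochondrial machinery, Nfs1, Lyrm4, Iscu, Hscb, Glrx5, Isca1, Isca2 and Nfu1. They were taken by symbol from a table of 19617 rows, and all 8 were found and passed the filter on low values that left 11980 genes for testing.

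The RNA came from the Lewis lung carcinoma line, mouse lung tumour cells that can be transplanted, here carrying a lentiviral short hairpin RNA (shRNA) that doxycycline switches on. The hairpin had a scrambled sequence in 3 libraries (labelled Urod wildtype) and was directed at Urod, the uroporphyrinogen decarboxylase gene of heme synthesis, in the other 3 (labelled Urod knockdown, and called knockdown libraries below). Every culture received 2 ug/mL doxycycline for 4 days, so no library represents cells without the drug. Whether the cells were 1 clone, and whether replicates were separate cultures, cannot be read from the labels. The p-values therefore reflect variation among these libraries, which may be technical.

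Levels are given as TPM, which scales each transcript's abundance by its length and each library to a common total. Steps between the lowest values gave relative depths, with knockdown replicate 1 as 100%, of 72.9% to 81.9% for scrambled libraries and of 95.6% and 85.7% for knockdown replicates 2 and 3. Urod, the target, fell to 5.87% of its scrambled level. Of the markers of the line, Krt8 had means of 315 and 459 TPM and Vim of 7812 and 3861 TPM in scrambled and knockdown libraries, while Krt18 stood at 0.124 to 0.382 TPM, Cdh1 at 0.739 to 0.912 TPM and Epcam at 0.809 to 2.16 TPM. None of the 5 leukocyte markers in the table reached a mean of 1 TPM. Their summed level was 1.06 to 1.22 TPM in scrambled and 0.811 to 1.10 TPM in knockdown libraries, against 4.91 to 5.31 and 8.73 to 9.61 TPM for 4 endothelial markers, 72.5 to 77.2 and 47.4 to 51.7 TPM for 4 fibroblast markers, and 0.252 to 0.576 and 0.784 to 1.02 TPM for 3 red cell markers. Among the fibroblast markers, Pdgfra had means of 57.3 and 34.9 TPM and Pdgfrb of 17.6 and 14.9 TPM in scrambled and knockdown libraries. Dcn and Lum stayed under 1 TPM. Most of the endothelial sum was Pecam1, with means of 4.74 and 7.37 TPM. No marker in the table was at 0 in all libraries. Rn45s, the ribosomal RNA precursor, had a mean of 1313 ± 181 TPM without and of 3782 ± 297 TPM with the Urod hairpin (SD, n = 3 each). The part of these differences in the results below was not tested, except that the 8 genes kept their calls when Rn45s and small RNA rows were removed and the libraries rescaled.

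Among the 8 genes, 3 rose in cells with the Urod hairpin and 5 did not pass the test; 0 fell. Glrx5, a monothiol glutaredoxin that carries the new cluster away from the scaffold, rose 1.78-fold. Lyrm4, the small protein that stabilises the desulfurase, rose 1.51-fold, and Nfu1, a late carrier for enzymes of lipoate synthesis and respiration, rose 1.24-fold. The desulfurase Nfs1, the scaffold Iscu, the chaperone Hscb and the late-acting pair Isca1 and Isca2 all stood within 6% of their scrambled means. The 3 calls of 8 are a share of 37.5%, beside 74.7% of all 11980 tested genes called in either direction, and the 3 upward calls stand beside 38.5% of all genes called upward and 36.2% called downward (limma fit of log2(TPM + 1), threshold 0.05 on the adjusted p). The median size of the change, whatever its sign, was 0.07 on the log2 scale for the 8 genes and 0.32 for all tested genes, while the median standard error was 0.045 and 0.054.

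**Figure D1:**
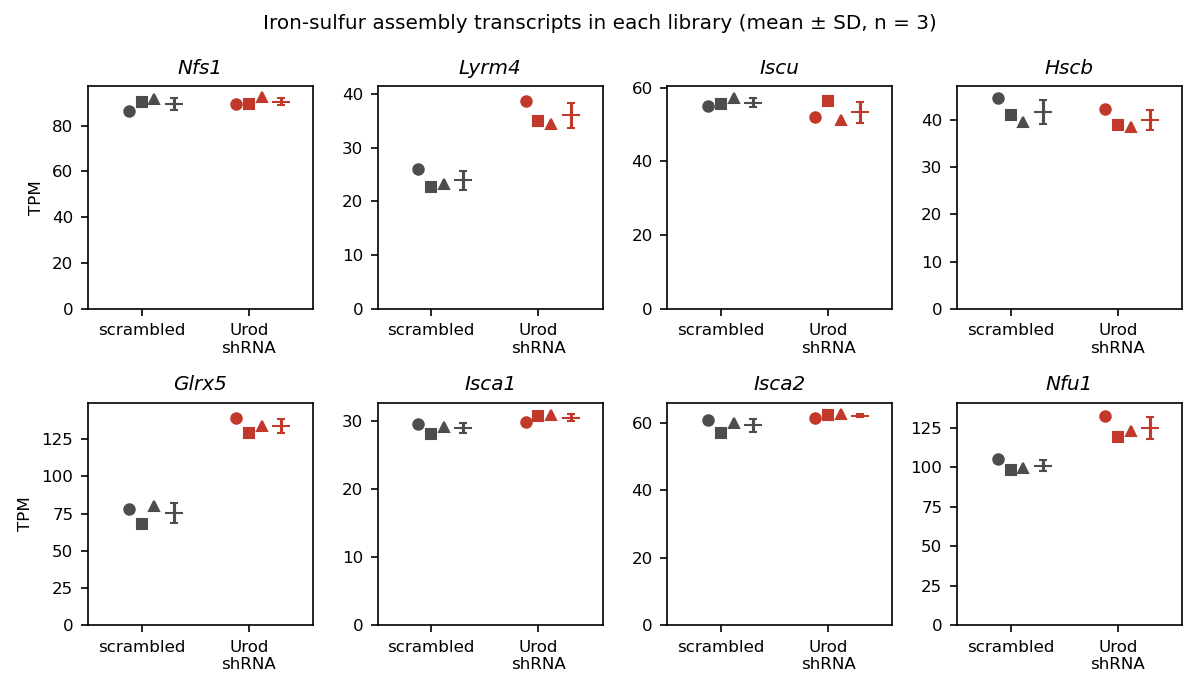
TPM of the 8 assembly genes (y axis, from 0) in 3 scrambled (grey) and 3 Urod shRNA (red, knockdown) libraries; circle, square and triangle are replicates 1, 2 and 3, and the bar beside them is the mean ± SD. The groups are far apart for Glrx5 and Lyrm4, nearer to each other but separate for Nfu1, and close or overlapping for the other genes.

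Nfs1 removes sulfur from cysteine and hands it to the scaffold. Scrambled libraries gave 86.5, 90.2 and 91.5 TPM, and knockdown libraries 89.6, 89.5 and 92.3 TPM. The groups overlapped, and the log2 change was 0.02 (95% interval -0.06 to 0.09; limma, adjusted p = 0.652), which places the change between 0.959-fold and 1.07-fold. Its sign turned with trimmed-mean and quantile scaling. Lyrm4, also called ISD11, binds Nfs1 and keeps it folded. Its level was 26.0, 22.7 and 23.2 TPM in scrambled and 38.7, 35.0 and 34.5 TPM in knockdown libraries. Every knockdown library was above every scrambled library, and replicate 1 was the highest in both groups. The log2 change of Lyrm4 was 0.57 (SE 0.07; limma, adjusted p = 0.000118; higher in 3 of 3 libraries).

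The unequal change of these partners can also be put as a ratio taken in each library, on which scaling has no effect. The ratio is made from the same values and is not separate evidence. The ratio of Lyrm4 to Nfs1 TPM was 0.300, 0.251 and 0.254 in scrambled libraries and 0.432, 0.391 and 0.374 in knockdown libraries, a rise of the mean from 0.269 ± 0.0275 to 0.399 ± 0.0302 (SD, n = 3 each). The ratios did not overlap; with 3 libraries against 3 an exact permutation test cannot give a p below 0.1, so none was used.

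Iscu is the scaffold on which the cluster is assembled. Its level was 54.9, 55.6 and 57.2 TPM in scrambled and 52.0, 56.4 and 51.3 TPM in knockdown libraries. The second knockdown library lay among the scrambled values and the other 2 below them. The log2 change of Iscu was -0.07 (95% interval -0.17 to 0.03; limma, adjusted p = 0.174). Without knockdown replicate 2 it was -0.11 and passed the test (adjusted p = 0.0309), the only call among the 8 genes that leaving out a library altered. Hscb, the cochaperone that brings the loaded scaffold to its chaperone, stood at 44.7, 41.1 and 39.6 TPM in scrambled and at 42.5, 39.1 and 38.7 TPM in knockdown libraries. The groups overlapped, replicate 1 was again the highest in each, and the log2 change was -0.06 (95% interval -0.19 to 0.08; limma, adjusted p = 0.380).

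Glrx5 had the largest change of the 8. Scrambled libraries held 78.4, 67.7 and 80.3 TPM, and knockdown libraries 139, 129 and 134 TPM. The lowest knockdown value lay well above the highest scrambled value. The mean rose from 75.5 ± 6.80 to 134 ± 4.88 TPM (SD, n = 3 each), a log2 change of 0.82 (SE 0.07; limma, adjusted p = 1.60e-05). Relative to Iscu in the same library, Glrx5 was at 1.43, 1.22 and 1.40 in scrambled and at 2.67, 2.29 and 2.61 in knockdown libraries. The tested genes whose profile over the 6 libraries lay nearest to that of Glrx5 were Gnpnat1, Slc12a1 and Mrpl54, at root mean square distances of 0.0439, 0.0449 and 0.0491 on the log2 scale. Those nearest to Iscu, the gene with the lowest log2 change, were Tgfbrap1, Patl1 and Rbak, at 0.0150, 0.0198 and 0.0238.

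**Figure D2:**
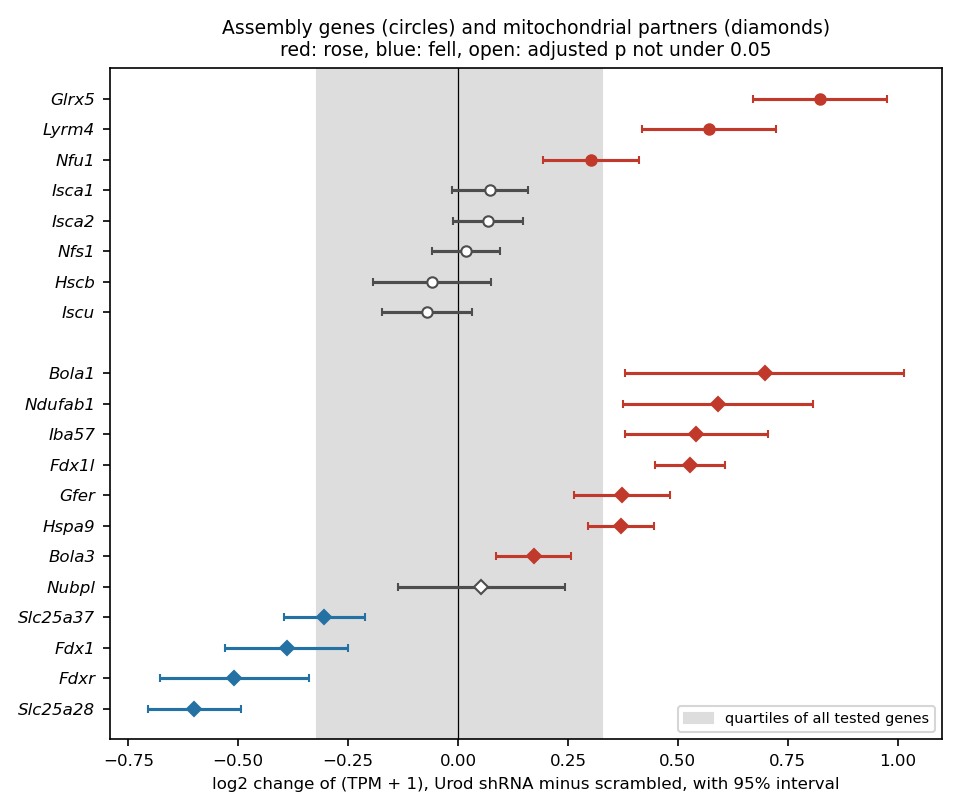
Log2 change of TPM + 1 (x axis, Urod shRNA minus scrambled) with its 95% interval for the 8 assembly genes (circles) and 12 of the 14 mitochondrial partners (diamonds); red rose, blue fell, open symbols did not pass, and the grey band is the range between the quartiles of all tested genes, from -0.32 to 0.33. Of the 8, Glrx5 and Lyrm4 lie outside the band, whereas 5 lie close to 0.

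Isca1 and Isca2 are related proteins that act together, late in the pathway, on clusters for enzymes such as aconitase and lipoate synthase. Isca1 stood at 29.5, 28.1 and 29.1 TPM in scrambled and at 29.8, 30.6 and 30.9 TPM in knockdown libraries. Isca2 stood at 60.9, 57.2 and 59.9 TPM in scrambled and at 61.6, 62.3 and 62.6 TPM in knockdown libraries. For both genes the groups were next to each other without overlapping, and neither passed the test. The log2 change was 0.07 for Isca1 (95% interval -0.01 to 0.16; limma, adjusted p = 0.112) and 0.07 for Isca2 (95% interval -0.01 to 0.15; limma, adjusted p = 0.105). In all, the values did not overlap for 5 of the 8 genes, beside 77.3% of all tested genes. The ratio of Isca1 to Isca2 TPM was 0.487 ± 0.00290 in scrambled and 0.490 ± 0.00475 in knockdown libraries (SD, n = 3 each), and the groups overlapped.

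Nfu1 stood at 105, 98.7 and 99.7 TPM in scrambled and at 133, 119 and 123 TPM in knockdown libraries. The groups did not overlap, and replicate 1 was the highest in each. The log2 change of Nfu1 was 0.30 (SE 0.05; limma, adjusted p = 0.000607; higher in 3 of 3 libraries). Whatever its sign, the median size over all tested genes was 0.32, so a change of this size was common here. Relative to Isca2 in the same library, Nfu1 was at 1.73, 1.72 and 1.66 in scrambled and at 2.15, 1.91 and 1.97 in knockdown libraries.

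**Figure D3:**
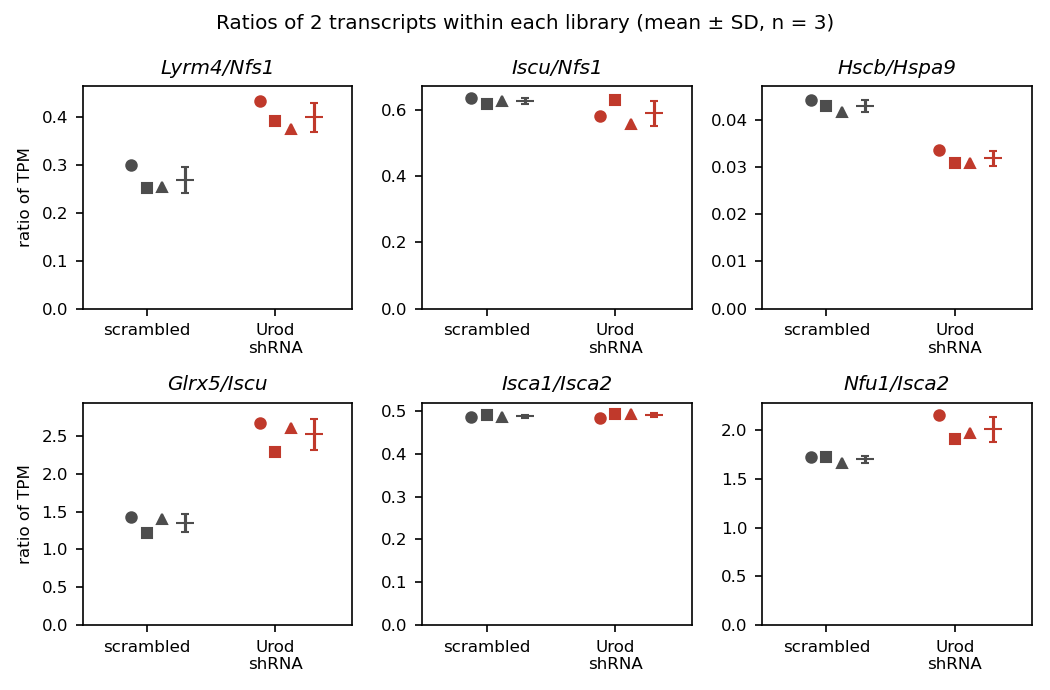
Ratio of the TPM of 2 transcripts within each library (y axis, from 0) for 6 pairs; grey is scrambled, red is Urod shRNA, symbols are replicates 1 to 3 as circle, square and triangle, and bars are mean ± SD. Lyrm4 to Nfs1 and Glrx5 to Iscu are higher and Hscb to Hspa9 is lower in every knockdown library, while Isca1 to Isca2 is near 0.49 in all 6.

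Since TPM are per length, the levels of the 8 genes can be ordered within a group. In scrambled libraries Nfu1 was highest, followed by Nfs1, Glrx5, Isca2, Iscu, Hscb, Isca1 and Lyrm4, and the values of Isca2 and Iscu overlapped while all other neighbours were apart. In knockdown libraries Glrx5 and Nfu1 came first with overlapping values, and Lyrm4 had passed Isca1, its lowest value of 34.5 TPM lying above the highest Isca1 value of 30.9 TPM. Hscb and Lyrm4 overlapped there. The range ran from 24.0 TPM (Lyrm4) to 101 TPM (Nfu1) in scrambled libraries and from 30.5 TPM (Isca1) to 134 TPM (Glrx5) in knockdown libraries. The level of Isca1, and so its place in both orders, is uncertain, because 1914 of its 1942 transcript bases match a copy elsewhere. Iscu and Nfu1, which match pseudogenes over part of their length, are less certain as well.

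In the authors' deposited table of the same comparison, FDR was under 0.05 for 3 of the 8, the same 3 as here, beside 75.3% of the genes tested here. In the authors' deposited table the log2 fold changes were 0.84 for Glrx5, 0.60 for Lyrm4 and 0.31 for Nfu1, and lay between -0.06 and 0.08 for the other 5. Both analyses rest on the same 6 libraries.

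The genes lie on 5 chromosomes (coordinates from GENCODE M21 for GRCm38, which is mm10). Glrx5 (ENSMUSG00000021102.4) occupies 105032688 to 105042906 and Isca2 (ENSMUSG00000021241.7) 84773251 to 84775088 of chromosome 12, both on the plus strand. Lyrm4 (ENSMUSG00000046573.7) spans 35978395 to 36117526 on the minus strand of chromosome 13, and Isca1 (ENSMUSG00000044792.7) spans 59755409 to 59769810 on the same strand. Nfs1 (ENSMUSG00000027618.17) occupies 156123639 to 156144186 of chromosome 2 (minus strand), and Nfu1 (ENSMUSG00000029993.16) 87009236 to 87028461 of chromosome 6 (plus strand). Iscu (ENSMUSG00000025825.12) and Hscb (ENSMUSG00000043510.12) lie on chromosome 5, from 113772748 to 113778288 on the plus strand and from 110829070 to 110839777 on the minus strand.

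Near-identical copies can take or lose reads, since alignments of low mapping quality were discarded. The longest coding transcript of Isca1 (1942 bases) matched AK157302, elsewhere on chromosome 13, over 1914 bases at 99.0% identity, so the values of Isca1 are uncertain. Iscu matched the processed pseudogene Gm16437 over 421 of its 1395 bases at 98.3%. Nfu1 matched the processed pseudogene Gm7859 over 771 of its 1195 bases at 95.7%. The values of Iscu and Nfu1 are uncertain too, to a degree that was not tested. Nfs1 shares 148 exonic bases with Romo1 and Lyrm4 shares 115 with Fars2, both on the opposite strand. On its own strand Nfs1 shares 258 exonic bases with the gene model Gm28036, and the sources used here do not say whether strand was used in counting. Glrx5, Isca2 and Hscb had no match of at least 95% identity over 200 bases elsewhere and no overlapping exon of another gene of at least 51 bases.

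RefSeq start regions on GRCm38.p6 were matched by symbol for 6 of the 8 genes, that is all but Iscu and Hscb, each from 250 bases before to 50 bases after the start. They were searched on both strands for the E-box CACGTG, the pentamer CCAAT, the Sp1-type box GGGCGG, the NRF1 motif core TGCGCA and the ETS motif core CCGGAA. The Glrx5 region held CCAAT at 4 places, beginning 152, 59, 34 and 5 bases before the start. Of 32851 such regions, 37.4% held at least 1 CCAAT and 1.06% held 4 or more. That cut of 4 equals the Glrx5 count, and no such share was counted for the other motifs, so the 1.06% is only descriptive. Isca1 and Isca2 held 2 each, Nfu1 held 1, and Lyrm4 and Nfs1 held 0. Isca2 held 4 Sp1-type boxes and Lyrm4 and Nfu1 held 3 each, and 35.7% of regions held at least 1. The share of regions with 3 or more was not counted. The GC content was 63.0% for Isca2, 73.3% for Lyrm4 and 50.3% for Nfu1, beside a median of 52.7% over all regions. No matches in these 6 regions overlapped each other. The E-box (7.15% of regions) was in none of the 6, the NRF1 core (7.76%) in Isca1, and the ETS core (14.9%) in Nfs1, Isca1 and Isca2. Stretches before the start that no annotated exon covers are shown, 5′ to 3′ on the gene's strand with these motifs or their reverse complements in capitals, for Glrx5, the gene that rose most, and for the pair Isca1 and Isca2, which did not pass. They lie at chr12:105032368-105032617 (plus strand), chr13:59769859-59769964 (minus strand) and chr12:84773153-84773250 (plus strand); the GENCODE start of Glrx5 is 70 bases downstream of the RefSeq one.
Glrx5: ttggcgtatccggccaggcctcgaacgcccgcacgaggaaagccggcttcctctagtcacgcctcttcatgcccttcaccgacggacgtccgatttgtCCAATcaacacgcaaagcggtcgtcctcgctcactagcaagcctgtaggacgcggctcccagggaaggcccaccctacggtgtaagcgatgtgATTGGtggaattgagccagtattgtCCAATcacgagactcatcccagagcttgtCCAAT
Isca1: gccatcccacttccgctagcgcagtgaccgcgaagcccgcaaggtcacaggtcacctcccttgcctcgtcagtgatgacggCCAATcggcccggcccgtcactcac
Isca2: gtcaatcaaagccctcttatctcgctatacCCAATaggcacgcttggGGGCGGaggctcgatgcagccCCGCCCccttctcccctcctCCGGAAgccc
A match of letters is a description of the sequence and not a measured binding site.

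Around the 8 genes, other parts of the mitochondrial machinery moved in both directions. Of the 14 partner genes, all tested, 8 rose, 4 fell and 2 did not pass, with a median log2 change of 0.20, beside 0.02 for all tested genes. Called were 85.7% of the partners and 74.7% of all tested genes, the latter 38.5% upward and 36.2% downward. Whether the partners differ from that background was not tested. The acyl carrier protein Ndufab1, which binds Lyrm4, had a log2 change of 0.59, but its transcript has pseudogene copies of over 99% identity and it stood at only 8.63 TPM in scrambled libraries, so its value is uncertain. Hspa9, the mitochondrial chaperone that Hscb serves, rose from 974 ± 32.5 to 1259 ± 9.54 TPM (SD, n = 3 each), by 0.37 on the log2 scale (limma, adjusted p = 2.64e-05). The ratio of Hscb to Hspa9 TPM was 0.0442, 0.0429 and 0.0416 in scrambled and 0.0337, 0.0309 and 0.0310 in knockdown libraries.

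The partners that handle electrons and iron did not share a direction. The ferredoxin gene Fdx1l, the older name of Fdx2, whose product serves cluster assembly, rose from 72.6 ± 2.05 to 105 ± 2.43 TPM. Its relative Fdx1, a ferredoxin known for steroid hydroxylation and lipoylation, fell from 205 ± 12.8 to 156 ± 10.5 TPM, and Fdxr, the reductase that feeds both, fell from 120 ± 10.4 to 83.9 ± 5.49 TPM (SD, n = 3 each). Their log2 changes were 0.53, -0.39 and -0.51 (limma, adjusted p = 5.52e-06, 0.000599 and 0.000389). Fdx1l shares 657 exonic bases with an overlapping gene model on the same strand, and its value is uncertain for that reason. Both mitoferrins, which carry iron into mitochondria, fell: Slc25a28 by 0.60 and Slc25a37 by 0.30 on the log2 scale (limma, adjusted p = 1.21e-05 and 0.000228).

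Among the late factors, Iba57, which works with Isca1 and Isca2, rose from 2.35 ± 0.124 to 3.88 ± 0.258 TPM, Bola1 from 10.1 ± 1.65 to 17.0 ± 2.58 TPM and Bola3, a partner of Glrx5 and Nfu1, from 61.3 ± 1.61 to 69.2 ± 2.22 TPM (SD, n = 3 each). Their log2 changes were 0.54, 0.70 and 0.17 (limma, adjusted p = 0.000224, 0.00212 and 0.00355). Nubpl, which delivers clusters to complex I, stood at 36.0 and 37.3 TPM (limma, adjusted p = 0.574). Gfer, a sulfhydryl oxidase of the intermembrane space that has been linked to export, rose by 0.37 on the log2 scale (limma, adjusted p = 0.000194). Parts of 2 of these partners are not unique in the annotation: Gfer matches Dst over 573 bases at 99.8%, and Slc25a37 matches Gm16867 over 382 bases at 100%.

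**Figure D4:**
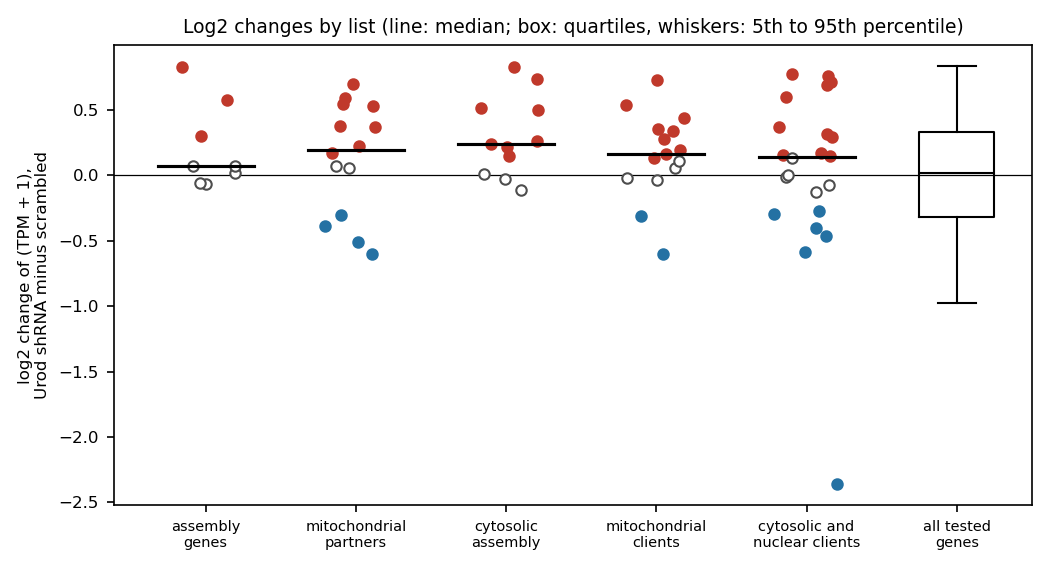
Log2 change of TPM + 1 (y axis, Urod shRNA minus scrambled) for each tested gene of 5 lists; red rose, blue fell, open circles did not pass, lines are medians, and the box shows quartiles and the 5th and 95th percentiles of all tested genes. The medians of the lists lie between 0.07 for the 8 assembly genes and 0.24 for cytosolic assembly.

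In the cytosol, where a separate machinery places clusters on cytosolic and nuclear proteins, 8 of 11 genes rose, 0 fell and 3 did not pass, with a median log2 change of 0.24. The called share was 72.7%, beside 74.7% of all tested genes, of which 38.5% were called upward and 36.2% downward. With quantile normalization, with the replicate block and without knockdown replicate 1, 1 of the 11 was called downward. Ciapin1, which passes electrons to that machinery, rose from 38.5 ± 1.26 to 64.7 ± 2.19 TPM, and the scaffold gene Nubp2 from 85.4 ± 3.64 to 121 ± 2.20 TPM. Bola2 rose from 114 ± 12.2 to 203 ± 15.6 TPM and its glutaredoxin partner Glrx3 from 77.4 ± 4.63 to 111 ± 8.48 TPM (SD, n = 3 each). The log2 changes of these 4 were 0.74, 0.50, 0.83 and 0.52 (limma, adjusted p = 2.48e-06, 1.24e-05, 6.19e-05 and 0.000179). Bola2 shares 349 exonic bases with Slx1b on the opposite strand and Glrx3 matches the pseudogene Gm12669 over 964 bases at 99.1%, so both values are uncertain.

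Of 15 mitochondrial proteins that use clusters (clients), 9 rose, 2 fell and 4 did not pass at the transcript level, with a median of 0.16. The complex I subunits Ndufs1 and Ndufs8 rose by 0.44 and 0.35 on the log2 scale, and Cdk5rap1, which modifies mitochondrial transfer RNA, rose by 0.73. The 2 that fell were Etfdh, which passes electrons from fatty acid oxidation to ubiquinone, by 0.61, and Fech, which encodes ferrochelatase, by 0.31 on the log2 scale (limma, adjusted p between 4.65e-06 and 3.95e-05 for these 5). Of 22 tested cytosolic and nuclear clients, 11 rose, 6 fell and 5 did not pass, with a median of 0.14. Abce1, a ribosome recycling factor, rose by 0.60, Ppat, the first enzyme of purine synthesis, which shares 272 exonic bases with Paics on the opposite strand, by 0.75 and Dph2, of diphthamide synthesis, by 0.71. Rsad2, an interferon-induced antiviral enzyme, fell from 37.4 ± 0.706 to 6.48 ± 0.396 TPM (SD, n = 3 each), a log2 change of -2.36 (limma, adjusted p = 6.08e-08). Aco1, the cytosolic aconitase that serves as an iron regulatory protein when it lacks its cluster, rose from 39.1 ± 1.29 to 43.6 ± 0.557 TPM (SD, n = 3 each), by 0.16 on the log2 scale (limma, adjusted p = 0.00542). Fech and Aco1 were chosen after their values were seen. Parts of the Fech transcript match other loci over 225 to 478 bases at 95.1% to 95.8% identity. The shares of called genes were 85.7% for the mitochondrial partners, 73.3% for mitochondrial clients and 77.3% for cytosolic and nuclear clients. Of all tested genes, 74.7% were called. The shares of both client lists lie near that background. That of the partners, 12 of 14 genes, was not tested against it. Other differences between the cells of the scrambled and the Urod hairpin cannot be told apart from an effect of Urod itself, and in bulk RNA fewer cells of a kind and less RNA per cell cannot be told apart.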

How the data were processed

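Per the labels' protocols, polyadenylated RNA was made into strand-specific libraries and read as 51-bp single ends, and after trimming, TopHat placed the reads on mm10; those mapped with a quality of at least 10 were passed to Cufflinks and Cuffdiff, of which the submitters' processing notes give version 2.1.1 for Cuffdiff. The deposited per-library values carry the name normalized counts. They were taken as TPM made by the authors, because every library adds up to 1000000 and the gap between log2 value and the authors' log2 CPM tracks log2 length of the longest coding transcript (Pearson r = -0.900 over 10813 genes; genes are no replicates). The step that made them, and read depth, are not given in the sources used here. Per the file headers, the authors' comparison table has a log2 fold change, a log2 CPM, a score from a likelihood ratio, a p-value and an FDR for each gene; it names no tool.

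The 27 rows with a date for a name (0.231% to 0.241% of TPM) were left out. Genes whose 6 libraries averaged 1 TPM or more were fitted as log2(TPM + 1), which understates changes of low genes, with limma 3.58.1 in R 4.3.3 (variance trend, two-sided, Benjamini-Hochberg over all 11980 genes, threshold 0.05). The procedure was also run on simulated data with 200 changed genes, far fewer than were called here. That run therefore does not measure the error of the calls above. Transcripts were compared with blastn 2.17.0 on GENCODE M21, and figures used matplotlib 3.10.9.

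The 8 genes and the lists were chosen with earlier results of these data known. Named were the 8, the tested partners (2 of the 14 are counted but not reported here by name), the 4 genes of smallest adjusted p in each other list, and the 3 nearest profiles of the 8 genes' extremes. The counts of calls and the log2 changes of Urod and of the named list genes were recomputed with pseudocounts of 0.1 and 10, no filter or a mean of 10 TPM, 4 other scalings, no variance trend, the replicate number as a block, and without each library; ratios, marker levels, Rn45s and nearest profiles were not, and Iba57 has no value at a mean of 10 TPM.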

Additional observations from a re-analysis of the deposited data

How the results depend on the processing

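Glrx5, Lyrm4 and Nfu1 passed upward in all 16 alternatives, with log2 changes of 0.75 to 0.87, 0.44 to 0.63 and 0.25 to 0.34. Leaving out each library gave 8263 to 8962 called genes, 3 to 4 of the 8, 12 partners and 7 to 9 of cytosolic assembly. It also gave 10 to 11 mitochondrial and 14 to 16 other clients, and a Urod log2 change of -3.89 to -3.84. The 10 other settings gave 6897 to 10286 called genes, 3 of the 8 each time and a Urod log2 change of -4.07 (pseudocount of 0.1) to -2.73 (pseudocount of 10). Nfs1, which did not pass, turned sign with trimmed-mean scaling (-0.0013) and quantile normalization (-0.00081) and ranged from -0.0058 to 0.034 over left-out libraries; Nubpl ranged from -0.029 to 0.11, and the cause was not tested for either. Same-numbered libraries had deviation correlations of 0.42, 0.21 and 0.095 for replicates 1, 2 and 3. Each scrambled library against knockdown libraries of another number gave -0.34 to -0.14, -0.26 to 0.080 and -0.26 to 0.20. For replicates 1 and 2 the same-numbered value was above that range. Deviations were taken from each group's mean, so a high same-numbered value pulls the others down, and the 2 are not independent. The main fit nevertheless did not take the numbers as pairs, and the block is given as an alternative. With the replicate block 9882 genes were called, and 3 of the 8. TPM keep no counts, so no counting interval can be given.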
